A study of Homo sapiens with 2 samples.

Results

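The proteasome subunit genes were examined in RNA-seq of live and processed Stage 6 cells. They were chosen by symbol alone, as all genes named PSMA, PSMB, PSMC, PSMD, PSME or PSMF1 with a number, without pseudogenes and without PSMB8 and PSMB9, which were set aside by the rule. This gave 42 of the 55797 genes in the files, of which 17 form the core particle, 9 the base and 8 the lid of the regulatory particle. A further 3 are chaperones of base assembly, and 5 are other activators or inhibitors of the core. Both libraries came from H1, an established line of human embryonic stem cells, which was taken through a pancreatic protocol to the stage where insulin-expressing cells appear. A single differentiation was divided between the libraries. In the live sample RNA was taken at once from unfixed, unsorted cells with the RNeasy protocol. In the processed sample the cells were fixed with 4% paraformaldehyde, permeabilized, stained with antibodies and passed through the sorter with every cell kept, and RNA was extracted with a modified RecoverAll kit. Fixing, staining, sorting and the kit therefore cannot be told apart, and each condition has 1 library, so no difference below has a replicate check.

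The proteasome is the barrel-shaped protease that degrades proteins tagged with ubiquitin. Its core is a stack of rings, with outer rings of alpha subunits (PSMA genes) that gate the entrance and inner rings of beta subunits (PSMB genes), of which PSMB5, PSMB6 and PSMB7 carry the catalytic sites. The regulatory particle caps the core. Its base holds a ring of ATPases (PSMC genes) that unfold substrates and push them inward. Its lid removes ubiquitin chains through the deubiquitinase PSMD14. Because subunits are built into the complex in fixed proportions, cells usually transcribe the genes together, in part through the transcription factor NFE2L1. Beta cells and their precursors make large amounts of secreted protein, and misfolded chains are returned from the endoplasmic reticulum to the proteasome.

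All 7 endocrine markers checked, INS and CHGA among them, had an FPKM (fragments scaled to transcript length and sequencing depth) of at least 1 in both libraries, as did the 4 stromal and the 3 liver markers, so the culture was a mixture. In such bulk RNA, fewer cells of a type and less RNA per cell cannot be told apart. Read counts were not among the files analysed here. Among weakly expressed genes of 1 transcript, FPKM fell on steps, and the step of 1 fragment was 1.07 times as large in the processed library. A larger step goes with a smaller depth used in scaling. Which fragments define that depth is not given in the sources used here, so a difference in sequencing depth was not established. For each gene the authors gave a lower and an upper bound of FPKM, whose level is not stated. Over the 40 proteasome genes at or above 1 FPKM the median distance from value to bound was 3.04% of the value in live cells and 3.20% in processed cells. These bounds cover each library alone.

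Of the 42 genes, 40 were at or above 1 FPKM in either library and were used in the counts that follow. The exceptions were PSMA8, an alternative alpha subunit known from testis, with 0.0553 FPKM in live and 0.0590 in processed cells, and PSMB11, the beta subunit of the thymus, which was listed at 0 in both. Together the 40 genes made up 0.474% of all FPKM in live cells and 0.468% in processed cells. The median level was 57.3 FPKM in live and 55.1 in processed cells, against 8.46 and 8.03 FPKM over the 17326 genes that passed the same filter. On the scale of log2((processed FPKM + 1) / (live FPKM + 1)), which is called the log2 ratio here, the median of the 40 genes was 0.02. It was -0.09 over all 17326 genes. Ratios were above 0 for 21 of the proteasome genes and below 0 for 19.

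No proteasome gene was more than 2-fold apart between the libraries, whereas 12.8% of the 17326 genes were. A smaller fold of 1.2, close to the typical distance of genes at this level, was passed by 13 of the 40. Lower in processed cells by more than 1.2-fold were 8 genes, or 20.0%, where the share over all genes was 34.7%. Higher by more than 1.2-fold were 5, or 12.5%, where the share over all genes was 24.6%. These shares over all genes include many with low and variable FPKM. The 2-fold share was not counted among genes of higher FPKM alone. Among the 8515 genes at or above 10 FPKM, to which 38 proteasome genes belong, 30.3% were lower and 18.4% higher by 1.2-fold, and the counts of proteasome genes were 7 and 4. As deposited, the share that passed 1.2-fold was thus smaller for the proteasome genes than for all genes in either direction. Level was not matched, since the 8515 genes had a median of 21.4 FPKM in live cells and the 40 proteasome genes 57.3. The part of level in these shares was not tested. Scaling the processed library by the median ratio of all genes added up to 0.10 to a log2 ratio, less for genes of low FPKM, and the counts became 6 lower, or 15.0% where all genes gave 28.1%, and 9 higher, or 22.5% where all genes gave 29.4%. The authors' bounds were apart for 30 of the 40 genes, with 15 lower and 15 higher in processed cells, where bounds were apart and lower for 43.7% and apart and higher for 28.1% of all genes.

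**Figure D1:**
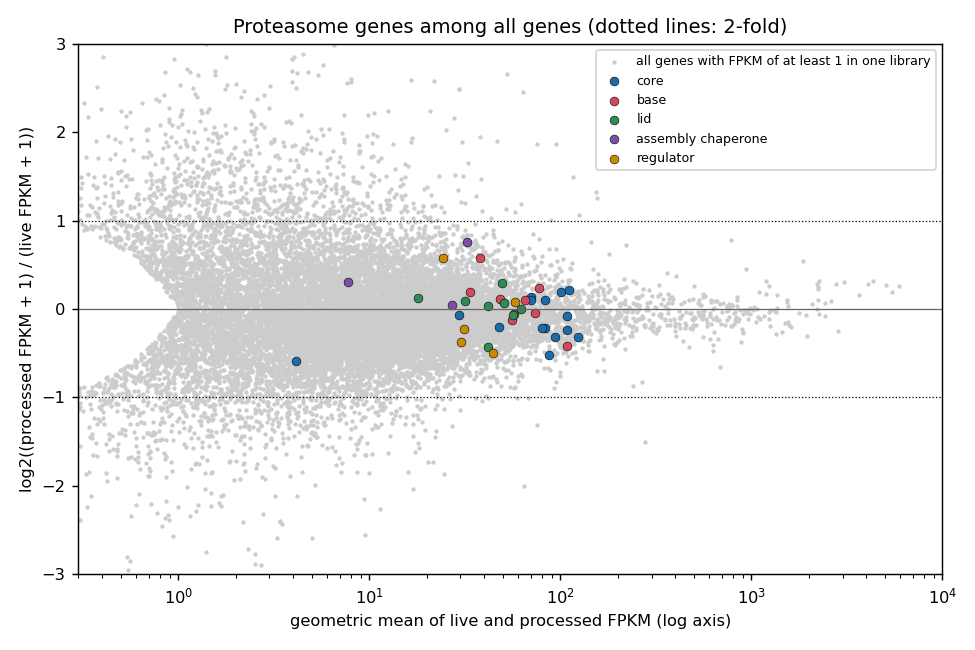
Log2 ratio (vertical axis) against the geometric mean of the FPKM values of both libraries (horizontal log axis), with proteasome genes in colour and other genes in grey. Genes at 0 in either library or beyond the axes are not drawn; the 40 proteasome genes lie at the higher levels, all between the dotted 2-fold lines.

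The parts of the complex differed in where their ratios lay. The 15 core genes had a median log2 ratio of -0.21, the 9 base genes 0.10 and the 8 lid genes 0.05. The median of the base was thus 0.31 above that of the core and the median of the lid 0.26 above it. Base and lid differed by 0.05, and that difference turned its sign, to 0.04, when PSMD4, which sits between base and lid, was counted in the lid. Of the core genes 10 were below 0 and 5 above, whereas 5 of 9 base genes and 6 of 8 lid genes were above. Over all 17326 genes 58.3% were below 0, so the share of the core, 66.7%, was near that of all genes. In sums of FPKM the core went from 1252 to 1161, 0.927 times the live value, while the base went from 559 to 560 and the lid from 352 to 354. The lid here holds only genes chosen by symbol. It leaves out the lid subunit SHFM1, which went from 91.4 to 61.4 FPKM, a log2 ratio of -0.57. No setting counted SHFM1 in the lid, so the near-level sum holds for the 8 genes alone. With 1 library per condition these differences between parts have no test. The ranges overlapped widely, from -0.59 to 0.21 in the core, from -0.42 to 0.58 in the base and from -0.43 to 0.30 in the lid. Scaling by the median ratio of all genes moved the medians to -0.11 in the core, 0.20 in the base and 0.15 in the lid. The core median also depended on which genes were counted. It was -0.14 over the 14 constitutive subunits and -0.08 when PSMA8 and PSMB11 were let in.

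**Figure D2:**
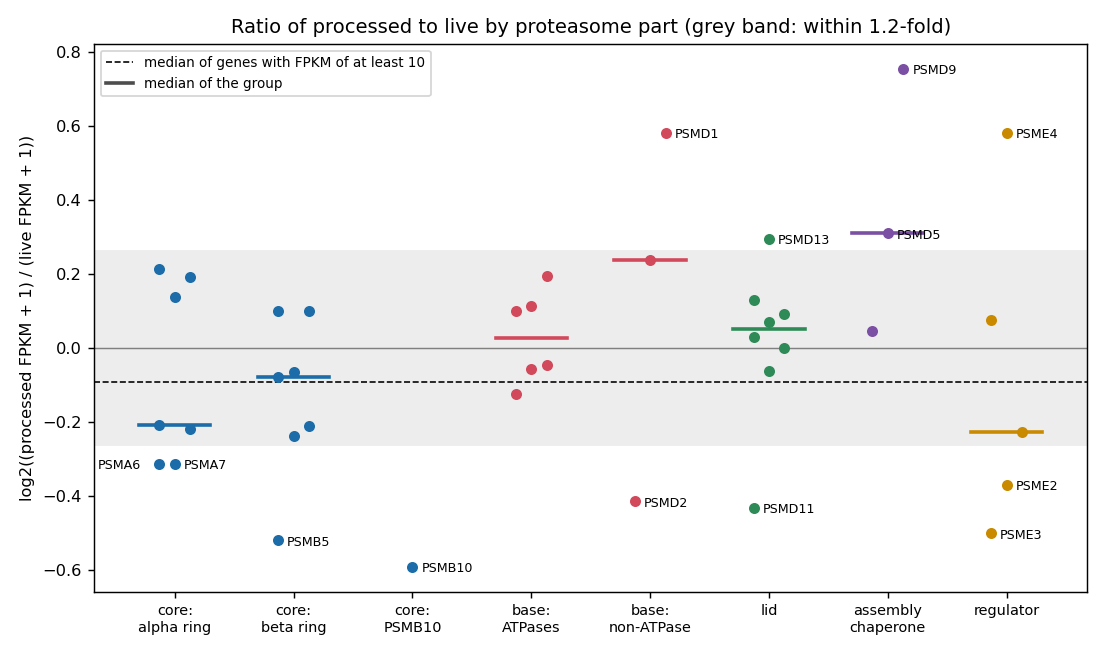
Log2 ratio (vertical axis) of each of the 40 proteasome genes by part of the complex, core and base being subdivided (horizontal axis), with a bar at the median of each column with several genes and a dashed line at -0.09, the median of the 8515 genes at or above 10 FPKM. Names mark the 13 genes outside the grey 1.2-fold band, 8 of them below it and 5 above.

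In levels, which are per transcript length, the core stood highest within each library. Its median was 89.6 FPKM in live cells and 76.8 in processed cells. The base followed at 58.3 and 56.0 FPKM and the lid, without SHFM1, at 46.6 and 47.2 FPKM. The longest annotated transcript ran in the reverse order, with a median of 1527 nt in the core, 2913 nt in the base and 3369 nt in the lid. The paper reports a 3′ bias of coverage in longer genes, and a small increase of that bias with processing. The part of length in the order of levels was not tested, nor was the part of the bias in the ratios. The 14 constitutive core genes spanned 4.57-fold in live cells, from PSMB2 to PSMA7, and 4.16-fold in processed cells. The 6 ATPases were closer together, at 2.39-fold and 2.01-fold. When the 40 genes were put in order of level, 23 of the 39 neighbouring pairs in live cells and 24 in processed cells had bounds that overlapped, so most neighbours in the order did not differ beyond their bounds. Across the 40 genes the log2 FPKM of live and processed cells gave a Pearson's r of 0.952 and a Spearman's rho of 0.942, as a description over genes of the same pair of libraries.

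**Figure D3:**
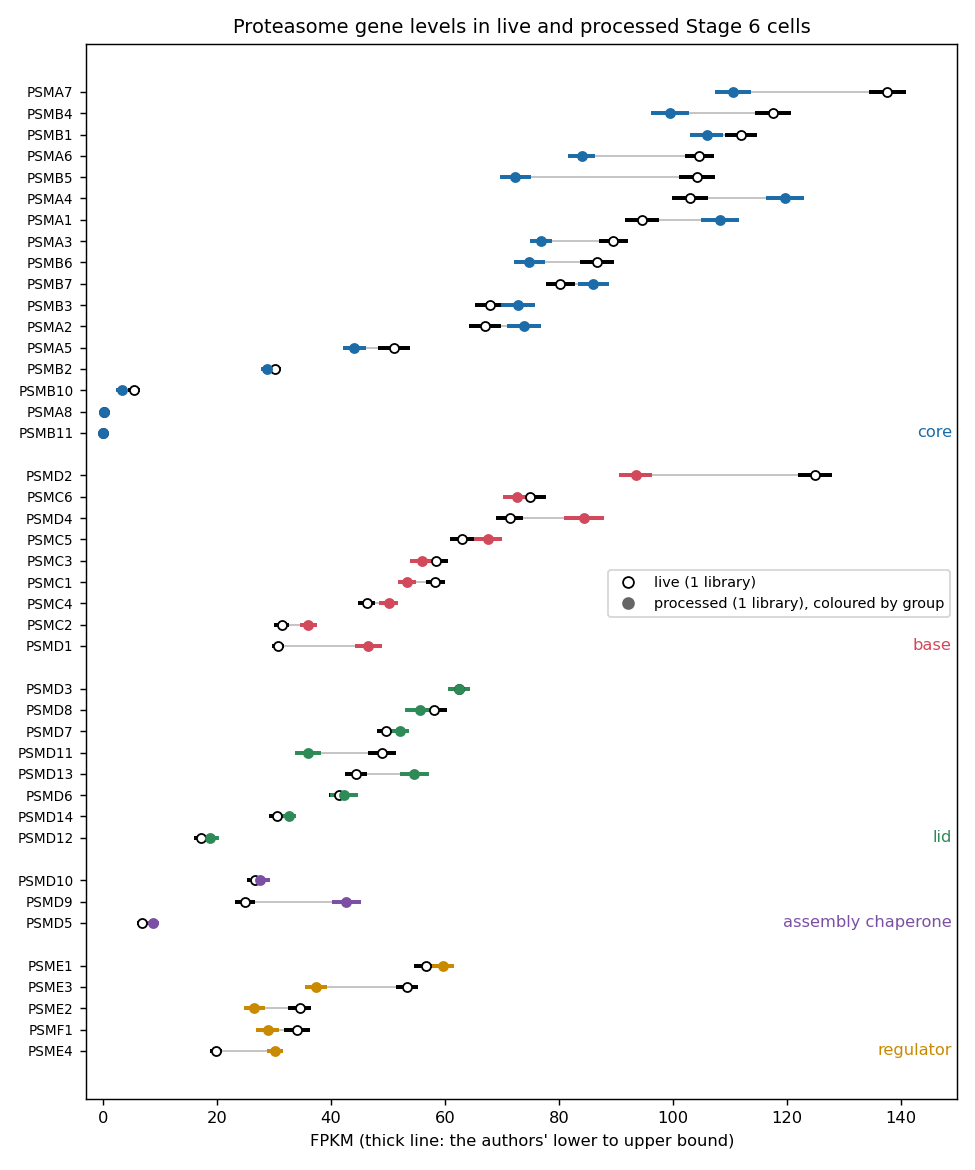
FPKM (horizontal axis) of each proteasome gene in live (open circles) and processed cells (filled circles), with thick lines from the lower to the upper bound of the authors, grouped by part of the complex and ordered by live level. PSMA7 leads in live cells and PSMA4 in processed cells, and PSMA8 and PSMB11 lie at or near 0.

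Among the alpha subunits, PSMA7 had the highest level of all proteasome genes in live cells, at 138 FPKM (bounds 135–141), and 111 FPKM (108–113) in processed cells. PSMA6 was lower by nearly the same amount, with 105 FPKM in live cells and 84.0 in processed cells. Both had a log2 ratio of -0.31, and the bounds were apart. PSMA3, at 89.6 and 76.8 FPKM, and PSMA5, at 51.1 and 44.1 FPKM, were lower too but stayed within 1.2-fold. The other alpha genes lay on the opposite side. PSMA4 had 103 FPKM (100–106) in live cells and 120 (117–123) in processed cells, which made it the highest proteasome gene there. PSMA1, with 94.6 and 108 FPKM, and PSMA2, with 67.1 and 73.9 FPKM, had log2 ratios of 0.19 and 0.14. The alpha genes thus split into 4 with lower and 3 with higher values, all with bounds apart.

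Of the 7 alpha genes that passed the filter, PSMA1, PSMA2, PSMA3 and PSMA6 overlap other expressed genes, and PSMA4, PSMA5 and PSMA7 do not. PSMA6 (GRCh37/hg19 chromosome 14, 35747839 to 35786699) lies on the same strand as KIAA0391, which covers all but its last bases and had 3.30 FPKM in live cells and 0.936 in processed cells. PSMA3 (chromosome 14, 58711549 to 58738730) is overlapped by 3 expressed genes, of which the long non-coding RNA RP11-349A22.5 on the opposite strand had 23.6 and 27.0 FPKM. PSMA1 shares 6245 nt with COPB1 on the same strand, which had 40.2 and 28.4 FPKM, and with both summed the log2 ratio was 0.02 in place of 0.19. In all, 15 of the 42 proteasome genes overlapped another gene at or above 1 FPKM. Overlaps were taken from whole gene spans, introns included, so the stretches given here and below need not be shared exon. Whether the authors' counting used strand is not given in the sources used here, and the part of such overlaps in the ratios was not tested. Each sum given here and below adds whole-gene FPKM, which is per length. Such a sum does not pool fragments and does not isolate the shared stretch.

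Of the catalytic beta subunits, PSMB5, which carries the chymotrypsin-like site and is the main target of bortezomib, showed the largest difference among the constitutive core genes. It had 104 FPKM (101–107) in live cells and 72.4 (70.0–74.7) in processed cells, 1.44-fold lower, a log2 ratio of -0.52. PSMB6, with the caspase-like site, went from 86.7 FPKM (84.1–89.4) to 74.8 FPKM (72.4–77.1), a log2 ratio of -0.21. PSMB7, with the trypsin-like site, went the other way, from 80.3 FPKM (78.1–82.4) to 86.1 FPKM (83.6–88.5), a log2 ratio of 0.10. The order of the 3 catalytic genes was therefore turned around. PSMB5 stood 1.30 times above PSMB7 in live cells and at 0.841 times its level in processed cells, where PSMB5 and PSMB6 had overlapping bounds. The structural beta genes lay closer to 0, apart from PSMB4, with 118 FPKM in live and 99.5 in processed cells and a log2 ratio of -0.24. PSMB1 had 112 and 106 FPKM and PSMB3 67.9 and 72.8 FPKM. PSMB2 had the lowest level of the constitutive core genes in both libraries, at 30.1 and 28.8 FPKM, and its bounds overlapped.

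PSMB10 replaces PSMB7 in the immunoproteasome, the form that interferon induces and immune cells carry. It had 5.34 FPKM (4.63–6.05) in live and 3.20 (2.61–3.80) in processed cells, a log2 ratio of -0.59 with bounds apart. It was the lowest of the 40 genes in both libraries and had the widest bounds, so its ratio is the least precise of all. Its level was 6.65% of that of PSMB7 in live and 3.72% in processed cells. The immune markers checked had low values, with a lower sum in processed cells. Of 6, 1 reached an FPKM of 1 in live and 0 in processed cells, and their sum went from 3.96 to 0.705 FPKM. AIF1 went from 2.71 FPKM to a listed 0, CD68 from 0.830 to 0.703 FPKM, and the T cell gene CD3E was listed at 0 in both. Their part in the value of PSMB10 was not tested.

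The 6 ATPases of the base had the narrowest range of ratios among the rings, lid and other parts described. As deposited none passed 1.2-fold, though PSMC2 did, at 0.29, under median-ratio scaling. Their log2 ratios ran from -0.13 for PSMC1 to 0.19 for PSMC2, with 3 below and 3 above 0. PSMC6 had the highest level of them, 75.01 FPKM in live and 72.6 in processed cells, with overlapping bounds, as for PSMC3 at 58.3 and 56.0 FPKM. PSMC5 had 63.0 and 67.5 FPKM and PSMC4 46.2 and 50.1 FPKM. PSMC2 was lowest in both, at 31.4 FPKM (30.4–32.3) and 36.0 FPKM (34.9–37.1). Its span holds CTA-276O3.4, a pseudogene of 171 nt on the same strand, at 74.0 and 105 FPKM with lower bounds of 0. It also overlaps by 620 nt DNAJC2 on the opposite strand, which had 16.8 and 20.9 FPKM. PSMC1, at 58.3 and 53.3 FPKM, has pseudogenes that derive from it. PSMC1P1 (chromosome 3, 68684856 to 68686175) had 11.0 and 13.3 FPKM. PSMC1P5, a stretch of 177 nt on chromosome 5, had 47.7 FPKM (37.8–57.6) and 44.7 FPKM (35.3–54.2). That stretch is close to the 170 nt taken as fragment length here, so its FPKM cannot be set beside that of PSMC1. How the authors' counting divided fragments among such copies is not given in the sources used here.

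The scaffold subunits of the base, by contrast, were far apart. PSMD2 and PSMD1 are large related proteins, the first of which binds ubiquitin-like domains of shuttle factors. PSMD2 (chromosome 3, 184016497 to 184026842) had 125 FPKM (122–128) in live cells, second only to PSMA7, and 93.5 FPKM (91.0–96.1) in processed cells, a log2 ratio of -0.42. PSMD1 (chromosome 2, 231921578 to 232037541) had 30.7 FPKM (30.0–31.4) and 46.5 FPKM (44.5–48.5), a log2 ratio of 0.58. PSMD2 therefore stood 4.07 times above PSMD1 in live cells and 2.01 times above it in processed cells. The ubiquitin receptor PSMD4 had 71.4 FPKM (69.4–73.4) and 84.4 FPKM (81.2–87.6), a log2 ratio of 0.24. EIF2B5, whose span in the files covers PSMD2 on the same strand, had 27.4 and 24.1 FPKM.

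Of the 8 lid genes 6 were within 1.2-fold, as were 7 of 9 in the base and 11 of 15 in the core, where 51.3% of all genes at or above 10 FPKM were. PSMD3 had 62.4 FPKM in live and 62.5 in processed cells, a log2 ratio of 0.00. PSMD14, the deubiquitinase that cuts the ubiquitin chain from the substrate, had 30.6 and 32.6 FPKM. AC009299.5, a pseudogene on the opposite strand that shares 513 nt with it, had 22.8 and 12.2 FPKM. The summed FPKM gave a log2 ratio of -0.25 in place of 0.09. That sum weights the short pseudogene like the longer PSMD14 and does not pool their fragments, so the turn of sign cannot be read as an effect of the overlap. PSMD8, PSMD6 and PSMD12 had overlapping bounds, at 58.0 and 55.6, 41.3 and 42.3, and 17.1 and 18.8 FPKM. PSMD7, the partner of PSMD14, had 49.6 and 52.1 FPKM with bounds just apart. The exceptions pointed in opposite directions. PSMD11, a scaffold subunit of the lid, went from 48.9 FPKM (46.8–51.1) to 36.0 FPKM (34.0–37.9), a log2 ratio of -0.43. PSMD13 went from 44.3 FPKM (42.8–45.9) to 54.6 FPKM (52.5–56.8), a log2 ratio of 0.30. PSMD13 overlaps by 386 nt the gene SIRT3 on the opposite strand, which had 12.8 and 9.12 FPKM. The summed FPKM of both whole genes gave a log2 ratio of 0.16, within 1.2-fold, though only those 386 nt are shared.

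PSMD9, PSMD10 and PSMD5 are not part of the finished particle. They hold ATPases during assembly of the base. PSMD9 (chromosome 12, 122326637 to 122356203) had the largest ratio of all proteasome genes, with 24.9 FPKM (23.5–26.2) in live cells and 42.7 (40.5–44.8) in processed cells. This was 1.72-fold higher, a log2 ratio of 0.76, which exceeded 95.3% of the genes at or above 10 FPKM. RP11-87C12.2, on the same strand and across the whole of PSMD9 but for its first bases, went from 2.78 to 0.137 FPKM. With both summed, the values were 27.7 and 42.8 FPKM, a log2 ratio of 0.61. WDR66, which shares 436 nt at the far end, had 3.26 and 4.61 FPKM. PSMD10, also known as gankyrin, had 26.6 and 27.5 FPKM with overlapping bounds. PSMD5 had 6.84 FPKM (6.35–7.33) and 8.72 FPKM (7.99–9.46), a log2 ratio of 0.31. RP11-27I1.2 on its opposite strand had the same log2 ratio, from 8.71 to 11.0 FPKM. The spans of this pair overlap, and how much exon they share was not examined.

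The 5 activators and inhibitors that work apart from the regulatory particle had the widest range of any part, with log2 ratios from -0.50 to 0.58. PSME1 and PSME2 together form the interferon-inducible activator PA28. PSME1 had 56.6 FPKM in live and 59.7 in processed cells, with overlapping bounds. PSME2 had 34.5 FPKM (32.9–36.2) and 26.5 FPKM (25.01–27.99), a log2 ratio of -0.37. PSME1 thus stood 1.64 times above its partner in live and 2.25 times above it in processed cells. PSME2 overlaps by 888 nt the gene RNF31 on the opposite strand, which had 30.4 and 43.8 FPKM. The summed FPKM of both whole genes gave a log2 ratio of 0.11 in place of -0.37. Only those 888 nt are shared, and the sum does not pool fragments. A pseudogene, PSME2P2, had 9.21 and 10.03 FPKM. PSME3, the nuclear activator, had 53.3 FPKM (51.7–54.9) and 37.4 FPKM (35.8–38.9), a log2 ratio of -0.50. Its span overlaps by 8966 nt that of BECN1 on the opposite strand, which had 26.6 and 28.5 FPKM. With both whole genes summed, the log2 ratio was -0.27. PSME4, which encodes the large activator PA200, had 19.8 FPKM (19.2–20.5) and 30.1 FPKM (29.2–31.1), a log2 ratio of 0.58. PSMF1, the inhibitor PI31, had 34.0 and 28.9 FPKM, a log2 ratio of -0.23.

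Promoters were searched for motifs of factors known to act on proteasome genes, in the RefSeq sequences of 250 bases before to 50 bases after each gene start (GRCh38.p14). Of the 42 genes, 37 had an entry, with 44 starts in all. The core of the antioxidant response element, TGACNNNGC, which NFE2L1 and NFE2L2 bind, stood on either strand in 12 of the 37, or 32.4%, against 16.1% of the 27305 genes with an entry and 19.1% of the 10246 of them that passed the filter on FPKM. The ETS motif CCGGAAG stood in 37.8% of proteasome genes and 20.9% of the genes that passed the filter. For the CCAAT box the shares were 48.6% and 43.3%. For GCGCATGC, the motif of nuclear respiratory factor NRF1, which is not NFE2L1, they were 5.41% and 6.15%. Genes with several starts had more than 1 window in which a motif could be found.

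The 12 genes with the antioxidant response element core had a median log2 ratio of 0.12, and 11 were above 0. Among the 11, PSMB3, PSMD3, PSMD12 and PSME1 had overlapping bounds, and PSMD3 had a log2 ratio of 0.00. The 23 others with an entry had a median of -0.06, with 8 above 0. That last count holds as deposited, since median-ratio scaling turned PSMB2, PSMC3, PSMC6 and PSMD8, all among the 23, from below to above 0. Of all genes, 38.02% with the motif and 37.78% without it were above 0. The median over all genes was -0.11 with and -0.11 without the motif. The proteasome genes with it include PSMD9, PSMD1, PSME4 and PSMD5, which are 4 of the 5 that were higher by more than 1.2-fold, and PSME2, the only one of the 12 that was below 0. The split was seen after the motifs had been searched, was not tested and gives no evidence of binding. For the other motifs the medians with and without were 0.03 and 0.01 (CCAAT), 0.07 and -0.03 (ETS), and 0.18 and 0.00 (NRF1, with the motif in only PSMA2 and PSMA4). The stretches below show the motif, in capitals, in 3 of the genes with higher values, in PSMA4, the highest gene of processed cells, and in PSME2. They are read 5′ to 3′ on the strand of the gene, and in PSME4 the motif is in reverse complement. In PSMD1 it lies after the gene start and is not shown.
PSMD9, chr12:121888663-121888721, plus strand: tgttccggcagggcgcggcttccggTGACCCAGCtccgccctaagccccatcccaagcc
PSME4, chr2:53970994-53971052, minus strand: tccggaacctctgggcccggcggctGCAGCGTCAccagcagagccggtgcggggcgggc
PSMD5, chr9:120843023-120843081, minus strand: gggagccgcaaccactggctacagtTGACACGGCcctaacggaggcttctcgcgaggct
PSMA4, chr15:78540635-78540693, plus strand: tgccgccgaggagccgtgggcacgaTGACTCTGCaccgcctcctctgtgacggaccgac
PSME2, chr14:24146752-24146810, minus strand: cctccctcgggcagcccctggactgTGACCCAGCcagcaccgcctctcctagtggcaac

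The motif shown began 102 bases before the start of PSMD9, 34 before that of PSME4, 134 before that of PSMD5, 126 before a start of PSMA4 and 175 before that of PSME2. In PSMD9 the bases just before it read as the ETS motif on the other strand. PSMD9 and PSME2 hold the same 9 bases, and their log2 ratios were 0.76 and -0.37.

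**Figure D4:**
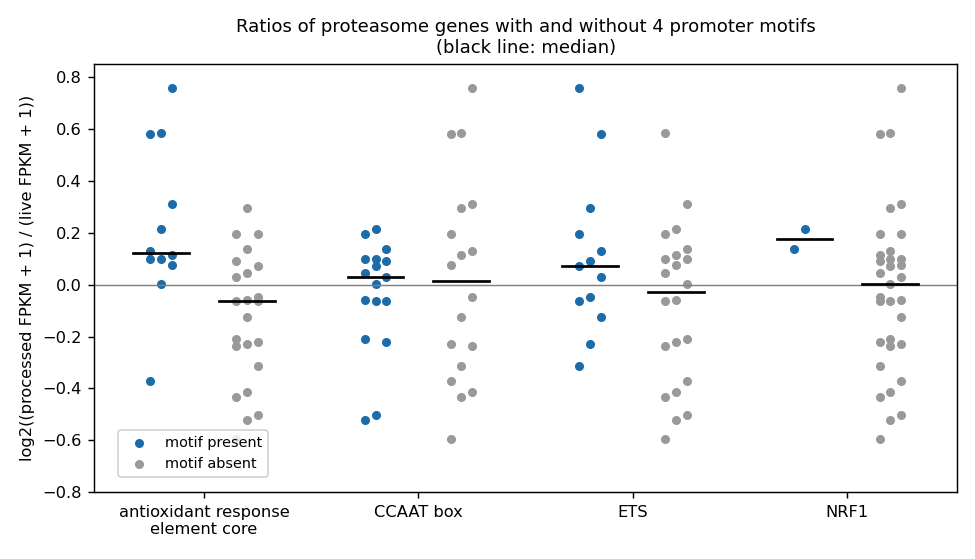
Log2 ratio (vertical axis) of the 35 proteasome genes with a RefSeq promoter and at or above 1 FPKM, divided by the presence (blue) or absence (grey) of each of 4 promoter motifs, with a black line at the median. With the antioxidant response element core present the median is 0.12 and 1 gene lies below 0, while the other motifs leave both sides spread around 0, apart from NRF1 with 2 genes.

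The genes that assemble, feed and control the proteasome were taken from a list, with 29 partners described here, all of which passed the filter. Their median log2 ratio was -0.13, with 11 lower and 2 higher by more than 1.2-fold, where 34.7% and 24.6% of all genes were. The 5 chaperones of core assembly all had ratios above 0, where 41.7% of all genes did. POMP, which matures the beta rings, had 34.6 FPKM (33.5–35.7) in live cells and 38.8 (37.6–40.1) in processed cells. PSMG2 had 14.8 FPKM (14.1–15.6) and 23.0 FPKM (21.7–24.3), a log2 ratio of 0.60. Its partner PSMG1, with 24.4 and 25.7 FPKM, and PSMG3 and PSMG4 had overlapping bounds.

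Of 8 genes listed as bound subunits or partners of the proteasome, 6 had ratios below 0, as did 58.3% of all genes. SHFM1, the smallest subunit of the lid, had 91.4 FPKM (87.4–95.4) in live and 61.4 (57.9–64.9) in processed cells, a log2 ratio of -0.57, which was lower than that of any lid gene named PSMD. UCHL5, a deubiquitinase of the base, had 11.7 FPKM (11.1–12.4) and 6.83 FPKM (6.08–7.58), a log2 ratio of -0.70. The ubiquitin receptor that holds UCHL5, ADRM1, lay on the other side at 45.5 and 51.3 FPKM. USP14, the other deubiquitinase, had 25.9 and 21.7 FPKM. Of the 6 shuttle factors, 5 were below 0, and UBQLN2 had 14.5 and 9.27 FPKM, a log2 ratio of -0.59.

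The transcription factor NFE2L1, which drives proteasome genes when the proteasome is inhibited, had 41.3 FPKM (40.6–42.1) in live and 31.5 (30.5–32.5) in processed cells, a log2 ratio of -0.38. NGLY1, the glycanase that activates it, had 12.7 FPKM (12.1–13.4) and 17.4 FPKM (16.2–18.6), a log2 ratio of 0.42. Of the upstream genes, NPLOC4, a cofactor of the unfoldase VCP, had the lowest ratio of the list, -0.87, with 33.5 FPKM (31.9–35.1) and 17.9 FPKM (17.4–18.4).

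**Figure D5:**
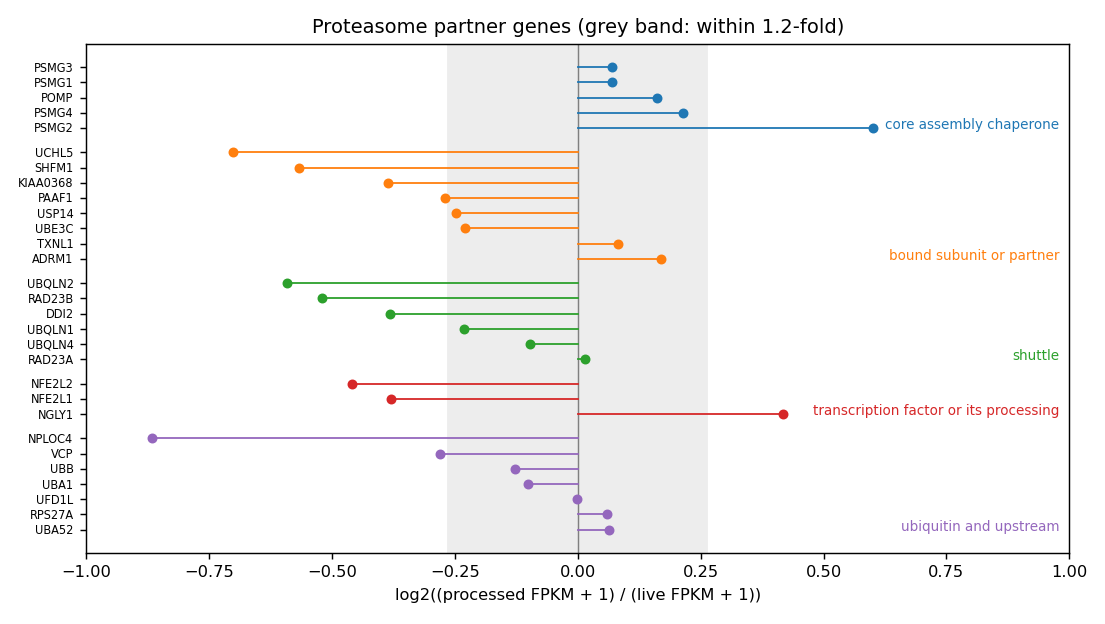
Log2 ratio (horizontal axis) of the 29 partner genes of the proteasome, grouped by role, with the 1.2-fold band in grey. All 5 core assembly chaperones lie to the right of 0, and 11 genes, NPLOC4 at -0.87 the farthest, lie to the left of the band.

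Length showed no strong relation to the ratios. The longest annotated transcript of the 40 genes ran from 762 to 8154 nt, with a median of 1527 nt in the core, 2913 nt in the base and 3369 nt in the lid. Across the 40 genes its log2 length and the log2 ratio gave a Pearson's r of 0.219 and a Spearman's rho of 0.183. Across the 8369 genes at or above 10 FPKM and a known length these were -0.099 and -0.153. These are descriptions across genes, which are not replicates, and the longest transcript need not be the one these cells use.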

How the data were processed

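RNA of 1 live and 1 processed sample was sequenced in paired reads of 80 nt. Per the labels and the study's methods, the authors aligned reads to GRCh37/hg19 with STAR 2.2.0c guided by GENCODE annotation and computed gene FPKM (fragments scaled to exon length and library depth) with the Cufflinks 2.0.2 package. The deposited FPKM, with bounds and status, is already normalized, and which fragments define the depth is not given in the sources used here. All 42 genes had status OK in both libraries.

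Libraries were joined by gene identifier with Python 3.11.15, numpy 2.4.6 and pandas 2.3.3, and correlations used scipy 1.17.1. Log2 ratios had a pseudocount of 1, and genes below 1 FPKM in both libraries were left out. Positions are 1-based. Strand, gene type and length came from GENCODE 44 on GRCh37, a later release than the one the authors used, and all 42 positions overlapped. The step of 1 fragment was read from FPKM times length less 170 nt. Named genes were all members, assembly factors and bound partners fixed by symbol, the 3 highest and 3 lowest ratios of the partner list at or above 10 FPKM, and overlapping genes. The named pseudogenes were chosen after their values were seen. A gene of the partner list is not reported here and was left out of its counts. Members and lists were chosen with earlier results of these data known. The calculation of ratios and fold counts was checked on simulated data that varied only by the sampling of fragments. That check says nothing about the spread between libraries.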

Additional observations from a re-analysis of the deposited data

Results flagged for a closer look

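PSMC1P1, a processed pseudogene of the ATPase gene PSMC1 that belongs to none of the groups compared, had an FPKM of 13.3 (bounds 12.6 to 13.98) in processed cells, above its 11.0 (10.4 to 11.6) in live cells, while PSMC1 itself was at 53.3 and 58.3 FPKM. It was singled out as signal outside the compared genes, and whether its fragments belong to PSMC1 was not tested.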

How the results depend on the processing

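No paired analysis was possible because each condition has 1 library, and no replicate could be left out. Pseudocounts of 0.1 and 0, rescaling to equal sums and keeping only genes with status OK moved no median by more than the typical bound and no count by more than 1.5 times. Dividing processed FPKM by the median ratio of 0.932 gave medians of 0.11 for all 40 genes, -0.11 for the core, 0.20 for the base and 0.15 for the lid, and 9 genes higher by 1.2-fold in place of 5. It turned the sign of 5 single genes, none of them past 1.2-fold, and moved 6 across that fold, PSMA6 and PSMA7 to within it and PSMA1, PSMA4, PSMC2 and PSMD4 past it. Equal sums moved PSMD4 alone past it. With no filter on low FPKM the core median was -0.078, the base and lid lay 0.18 and 0.13 above it, and its live level was 86.7 FPKM. With an FPKM of at least 10, as with the constitutive core, the core median was -0.14, the distances were 0.24 and 0.19, and its processed level was 80.4 FPKM. With PSMD4 in the lid or the ATPases alone as base, the base median was 0.026, the base lay 0.23 above the core, and the lid minus base difference turned from -0.05 to 0.044 and 0.024. With PSMD4 in the lid, the lid levels were 48.9 and 52.1 FPKM in live and processed cells. The spread between cultures or libraries of 1 condition is unknown, so the bounds limit only the precision within each library. The ratios of single members were tried under other settings only after the data had been seen.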
